A study of Mus musculus with 2 samples.

Results

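Fatty acid desaturases and elongases were followed through both arrays of the series. The group holds 10 genes, chosen by name, and its members were found as the gene spots whose annotated name was Scd1, Scd2, Elovl1, Elovl3, Elovl5, Elovl6, Elovl7, Fads1, Fads2 or Fads3. They carried 13 of the 41174 different gene probes on the array, and the genes are 10 of the 19505 that could be named. Each probe was spotted once, with 2 probes for Elovl5, Elovl7 and Fads3 and 1 for each of the other genes. The series compared PKGI KO mice (KO), which lack a cGMP-dependent kinase, the product of Prkg1, with wild type mice (WT), both on the C57BL/6N background. On the BAT array, untreated brown adipose tissue of a KO mouse (Cy5) was set against that of a WT littermate (Cy3). The adipocyte array held brown adipocytes that had been grown and differentiated in vitro from preadipocytes. KO cells (Cy3) were set against cells of WT littermate origin (Cy5). The ages of the mice and the way Prkg1 was disrupted are not given in the sources used here. Further animals were measured by quantitative PCR only, which is not used here.

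Fatty acid synthase ends at palmitate, a saturated chain, and the enzymes described here turn palmitate and dietary fatty acids into the longer and unsaturated chains of membranes and stored fat. Elongases of the Elovl family catalyse the condensation that starts each round of chain lengthening in the endoplasmic reticulum. The Scd enzymes make monounsaturated fatty acids, and Fads1 and Fads2 insert the double bonds of polyunsaturated ones. In brown fat of mice Elovl3 is known for its strong induction by cold.

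Each comparison rests on 1 array, which allows no test between the genotypes, and every value is that of these RNA samples alone. No dye-swapped array of either pair is used here, so a probe's dye bias and its genotype difference cannot be told apart. Ratios are log2 of KO over WT, and a probe was counted as lower or higher when it differed at least 2-fold. For probes with several spots the pooled SD of the log2 ratio between spots was 0.098 in BAT (191 probes) and 0.090 in adipocytes (198 probes). It covers the spotting and the scan, not the animals. Both Prkg1 probes well above background in both channels were lower in KO, at -1.29 and -1.22 in BAT and at -0.94 and -2.31 in adipocytes. A further Prkg1 probe, not well above background in WT, had 0.0055 in BAT and 0.17 in adipocytes, and the last was near background in all channels. The defining genes Ucp1 and Adipoq were well above background in both channels of both arrays. Sex-linked transcripts differed too. On the BAT array the brightest Xist probe had a normalised signal of 42994 in KO, against 204 in WT, and the Y-linked Eif2s3y had 81.3 in KO, not well above background, against 6884 in WT. On the adipocyte array that Xist probe had 114 in KO and 4361 in WT, whereas Eif2s3y had 4880 in KO and 5293 in WT. On the BAT array a difference between KO and WT therefore cannot be told apart from one that goes with sex. In culture the WT cells carried both Xist and Y-linked signal, while the KO cells had Y-linked signal with little Xist signal. A difference in sex make-up therefore cannot be told apart from one in genotype there either. How many mice the cells came from was not tested.

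On the BAT array 12 of the 13 member probes stood well above background in 1 channel or both and were kept, and all 12 did so in both. The probe left out was 1 of the 2 for Elovl7. On that array 2 members were lower by at least 2-fold in KO tissue, Elovl3 and Scd1, and none was higher. Of all 30020 gene probes kept on that array, 2.44% were at least 2-fold lower and 0.926% at least 2-fold higher, so that 2 of 12 stands beside that background. The median over the 12 probes was -0.32, against 0.02 over all kept probes. Below 0 lay 9 of the 12, against 47.6% of all kept probes. Without loess normalisation that count was 5 of 12, so the direction of several members within 2-fold rests on the scaling. The ratios of Elovl6, the kept Elovl7 probe and the brighter Fads3 probe stayed below 0 in all 10 other settings.

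On the adipocyte array 12 of the 13 probes were again kept, 11 of them well above background in both channels. Scd1 and Scd2 were at least 2-fold lower in KO cells, and no member was higher. Of the 29167 gene probes kept there, 3.89% were at least 2-fold lower and 2.07% at least 2-fold higher. The median of the 12 probes was 0.09, against -0.02 over all kept probes, with 6 below 0 (11 without loess), against 52.5% of all kept probes. The 10 probes other than those of Scd1 and Scd2 lay between -0.69 and 0.39.

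**Figure D1:**
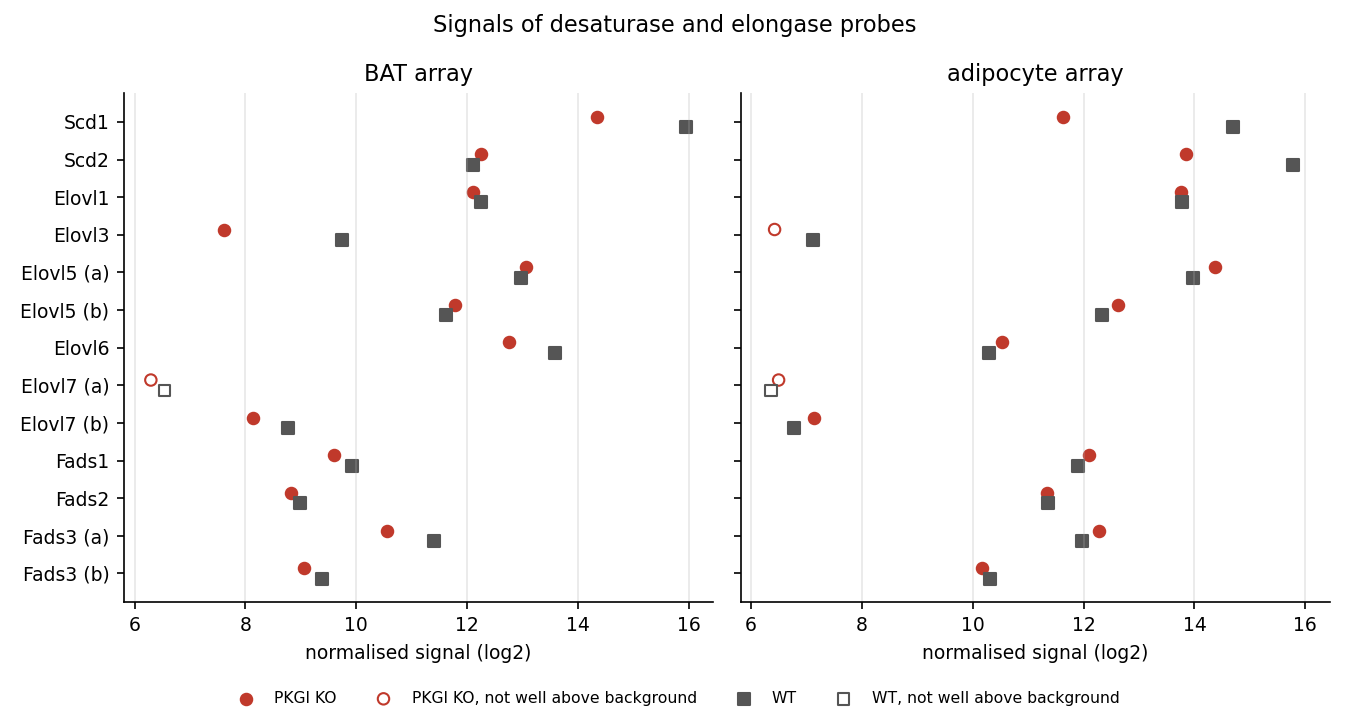
Normalised signal (log2) of each of the 13 member probes on the BAT array (left) and the adipocyte array (right), with circles for KO and squares for WT and open symbols for signals not well above background; a and b mark the 2 probes of a gene. KO and WT lie close together for most probes and far apart for Elovl3 and Scd1 in tissue and for Scd1 and Scd2 in cultured cells.

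Scd1, the stearoyl-CoA desaturase that makes most oleate in adult fat and liver, was lower in KO on both arrays. Its probe lies on chromosome 19 at 44288770 to 44288829 by the scanner files' annotation, which names no genome build. In BAT its normalised signal was 20827 in KO and 63755 in WT, a log2 ratio of -1.61. Only 0.623% of the kept probes of that array had a lower ratio. In cultured adipocytes the signal was 3147 in KO and 26566 in WT, a log2 ratio of -3.08, and 0.189% of kept probes lay lower. The spot was not saturated in either channel of either array. Feature Extraction's own ratio for this spot, with its modelled error, was -1.75 ± 0.26 in BAT and -3.14 ± 0.36 in adipocytes. In BAT the ratio fell short of 2-fold without loess (-0.88), while in adipocytes it stayed between -3.49 and -3.08 over the 10 other settings tried.

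Scd2, a close relative of Scd1 known from brain and developing tissues, differed from it in the tissue. Its probe lies on chromosome 19 at 44200407 to 44200466, in the cluster of Scd genes. In BAT the signal was 4858 in KO and 4427 in WT, a log2 ratio of 0.13, where 66.8% of the kept probes had a lower ratio. In cultured adipocytes it was 14716 in KO and 56606 in WT, a log2 ratio of -1.94 (3.85-fold lower). The cultured cells thus had less of both Scd transcripts in KO, and the tissue less of Scd1 with Scd2 near 0. Of the related genes, Scd3 had 0.06 in BAT and 0.01 in adipocytes, both from low signals. They were 116 in KO and 112 in WT in BAT, and 98.4 in KO and 97.8 in WT in adipocytes. Neither of the 2 Scd4 probes was well above background. The Scd genes are similar in sequence and the probe sequences are not used here, so how far one probe reads another gene's transcript was not tested.

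Elovl3, which makes saturated and monounsaturated very long chains, had the lowest member ratio in BAT. Its single probe lies on chromosome 19 at 46031906 to 46031965. The normalised signal was 195 in KO tissue and 859 in WT tissue, a log2 ratio of -2.14 (4.41-fold lower), with 0.310% of kept probes lower. The scanned mean signal of the KO spot was 173 over a local background of 52.0, and that of the WT spot 390 over 36.0, so the value comes from a dim spot. Feature Extraction's own ratio was -2.86 ± 0.34, and the ratio was -0.36 when spots with an outlier flag stayed in the background fit. In cultured adipocytes the signal was 85.8 in KO, not well above background, against 138 in WT. The difference there was 1.61-fold lower in KO (-0.69). It is called a bound since the KO signal was dim, but it equals the ratio itself and is no firm minimum. The ratio was -0.58 without loess and -1.75 by Feature Extraction's ratio.

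Elovl6, which lengthens palmitate to stearate and so feeds Scd1, was within 2-fold on both arrays. Its probe, on chromosome 3 at 129477684 to 129477743, had 6969 in KO tissue and 12309 in WT tissue, a log2 ratio of -0.82, with 3.79% of kept probes lower. In cultured adipocytes it had 1483 in KO and 1261 in WT, a ratio of 0.23. By normalised signal KO was thus the dimmer of the pair in tissue and the brighter in culture. The scanned mean signals, before background and dye correction, ran the other way, at 6870 in KO and 5028 in WT in tissue and at 1597 in KO and 3078 in WT in culture. In BAT the ratio kept its sign over all 10 other settings (-1.66 to -0.22), while in adipocytes it was -0.19 without loess.

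Elovl7, which acts on saturated chains, had 1 usable probe of 2, on chromosome 13 at 105412670 to 105412729. It had 283 in KO tissue and 435 in WT tissue, a ratio of -0.62. In adipocytes it had 141 in KO and 109 in WT, a ratio of 0.37, which became 1.04 with Feature Extraction's ratios and so passed 2-fold. Both are low signals, and the other Elovl7 probe stayed near background in all channels.

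Elovl1, which extends very long chains in most tissues, and Elovl5, the elongase of polyunsaturated chains, were close to 0. The Elovl1 probe, on chromosome 4 at 117808859 to 117808918, had 4438 in KO and 4866 in WT on the BAT array (-0.13). On the adipocyte array it had 13917 in KO and 14035 in WT (-0.01), a difference smaller than the SD between spots. Both Elovl5 probes lie on chromosome 9, at 78025742 to 78025801 and 78025137 to 78025196. In BAT the first had 8571 in KO and 8053 in WT (0.09), and the second 3512 and 3147 (0.16). In adipocytes the first had 21129 in KO and 16117 in WT (0.39), and the second 6312 and 5166 (0.29). The pair of probes thus gave nearly the same ratio on each array, 0.068 and 0.10 apart, and both adipocyte values turned negative without loess (-0.046 and -0.11).

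The front-end desaturases Fads1 and Fads2, which sit side by side and act in the same route to polyunsaturated fatty acids, showed small ratios. Fads2, whose product catalyses the first step of that route, had 451 in KO and 506 in WT in BAT (-0.17), and 2584 in KO and 2615 in WT in adipocytes (-0.02). Fads1, which acts later in the route, had 777 in KO and 973 in WT in BAT (-0.33), and 4396 in KO and 3836 in WT in adipocytes (0.20). Neither was near 2-fold in the main setting. The BAT ratios of both turned positive without loess (0.11 for Fads1 and 0.18 for Fads2). Centred on the spiked-in controls both passed 2-fold lower in BAT (-1.17 for Fads1 and -1.01 for Fads2). The Fads1 probe lies on chromosome 19 at 9876165 to 9876224, and the Fads2 probe was placed over 9744385 to 9744815 there.

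Fads3, a relative reported to act on sphingoid bases, gave different values with its 2 probes. The brighter, at 9738276 to 9738335 on chromosome 19, had 1502 in KO and 2722 in WT in BAT (-0.86), and the dimmer, at 9739664 to 9739723, had 535 in KO and 669 in WT (-0.32). In adipocytes the brighter had 4975 in KO and 4023 in WT (0.31), and the dimmer 1146 in KO and 1273 in WT (-0.15). The probes lay 0.54 apart in BAT and 0.46 apart in adipocytes, more than the SD between repeat spots of a probe. In adipocytes they had opposite signs. Without loess the brighter had -0.096 there, and the dimmer stayed below 0 in every setting, so the signs then did not differ. Feature Extraction's own ratio for the dimmer in adipocytes, with its modelled error, was -0.023 ± 0.20. Which transcripts each probe reads was not tested.

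**Figure D2:**
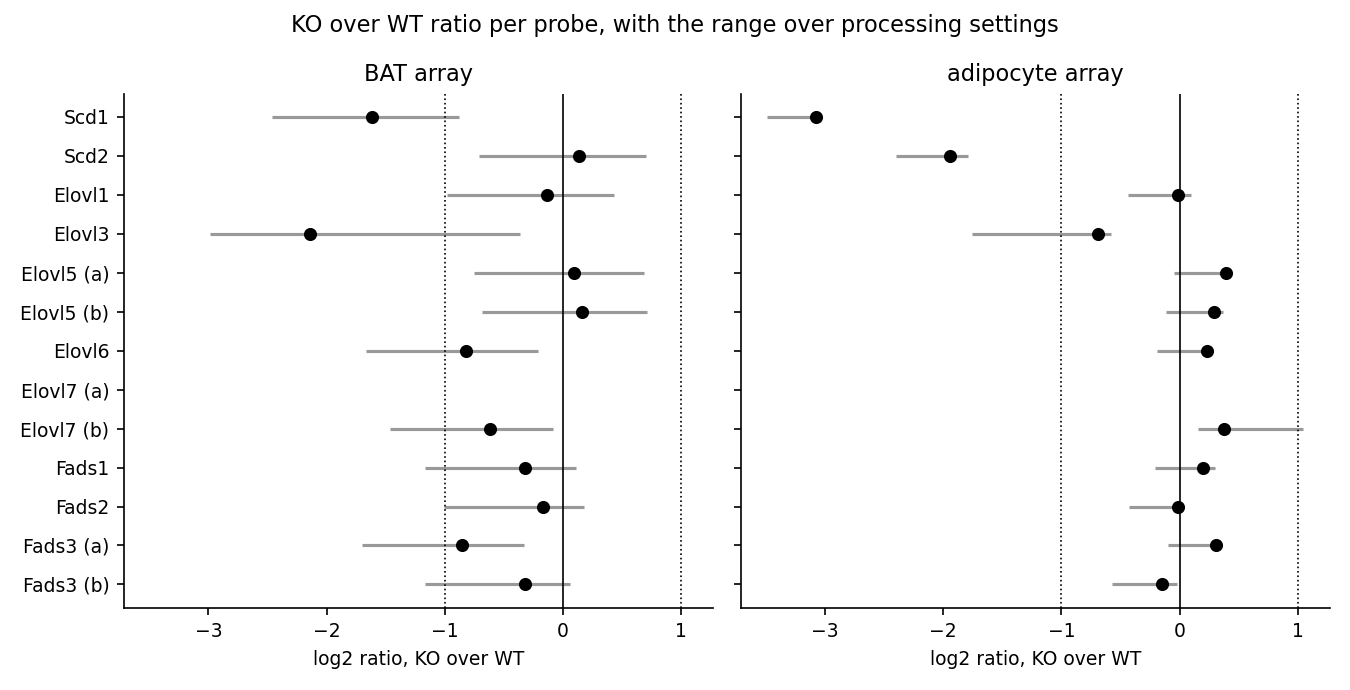
Log2 ratio of KO over WT for the 12 kept member probes of each array (points), with a line from the lowest to the highest value over the main and up to 10 other processing settings; dotted lines mark a 2-fold difference. Scd1 and Scd2 on the adipocyte array stay beyond 2-fold under every setting shown, whereas the lines of Scd1 and Elovl3 on the BAT array cross it.

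**Figure D3:**
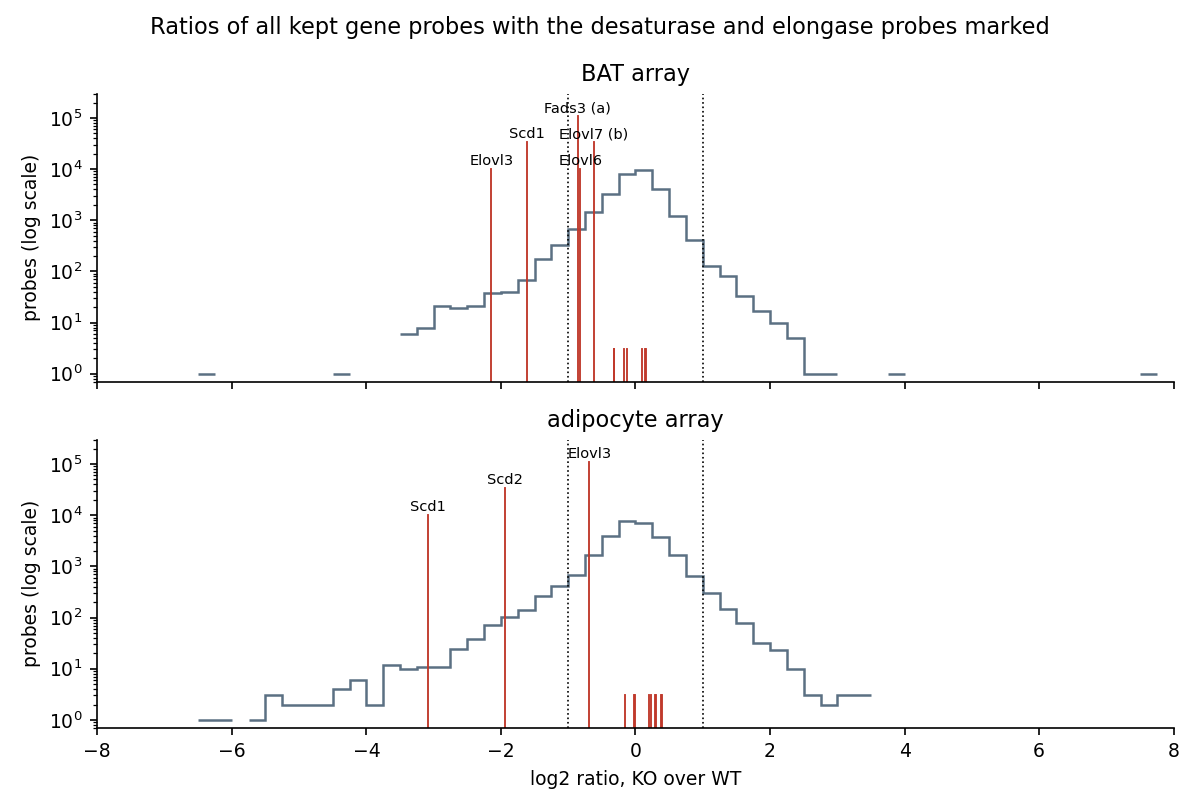
Number of kept gene probes (log scale) by log2 ratio of KO over WT in bins of 0.25 for each array, with the member probes as vertical lines, the long ones named and those above -0.5 short. Elovl3 and Scd1 on the BAT array and Scd1 and Scd2 on the adipocyte array lie in the thin lower tail, and the others lie within 2-fold of 0.

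Promoter sequences were looked up for the members in RefSeq (build GRCm38.p6), which gave 6 of the 10 genes, Elovl1 with 2 starts and Elovl5, Elovl6, Elovl7, Fads2 and Fads3 with 1 each. The 250 bases before the start were searched on both strands for CCAAT, the box bound by NF-Y, for CACGTG, an E-box, and for CACCCCAC, the core of the sterol response element known from the LDL receptor gene. Of 32851 mouse promoter windows of that length, 33.8% held CCAAT, 6.02% CACGTG and 2.58% CACCCCAC. Shown are Elovl6, Elovl7 and Fads3, the genes with the lowest BAT ratios among those found, 5′ to 3′ with these motifs in capitals, at chr3:129532136-129532385 (+ strand), chr13:108214154-108214403 (+) and chr19:10041298-10041547 (+).
Elovl6: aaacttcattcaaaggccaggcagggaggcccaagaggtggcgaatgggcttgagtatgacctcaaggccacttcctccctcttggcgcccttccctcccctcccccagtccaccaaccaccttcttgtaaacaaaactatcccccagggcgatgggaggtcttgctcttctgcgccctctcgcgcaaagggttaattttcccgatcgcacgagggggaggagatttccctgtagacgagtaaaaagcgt
Elovl7: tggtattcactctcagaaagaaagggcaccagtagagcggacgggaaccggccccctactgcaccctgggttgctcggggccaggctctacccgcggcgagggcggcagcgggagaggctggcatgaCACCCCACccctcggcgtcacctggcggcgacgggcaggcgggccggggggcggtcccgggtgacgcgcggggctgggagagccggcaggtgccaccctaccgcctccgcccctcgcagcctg
Fads3: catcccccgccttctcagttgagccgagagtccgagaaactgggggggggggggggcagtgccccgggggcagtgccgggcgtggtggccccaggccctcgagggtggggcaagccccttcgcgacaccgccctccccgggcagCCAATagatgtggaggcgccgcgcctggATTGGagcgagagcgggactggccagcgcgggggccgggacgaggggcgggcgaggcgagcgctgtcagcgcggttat
Elovl6 held none of the motifs in this window, Elovl7 held CACCCCAC once and Fads3 held CCAAT 2 times. The Fads2 window held none, that of Elovl5 held 2 CCAAT boxes and 1 E-box, and 1 of the 2 Elovl1 windows held 1 CCAAT box. These matches describe the letters only.

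The level of the members themselves differed between tissue and culture. The mean log2 level of both channels was compared between the arrays after both were given the same distribution of brightness; each array holds both dyes, but tissue and culture were hybridised on separate arrays and this is a description. Elovl6 was 6.77-fold, Scd1 3.99-fold, Elovl3 3.76-fold and the kept Elovl7 probe 2.83-fold brighter in BAT. All the other kept probes were dimmer in BAT. The log2 difference of BAT minus adipocytes was -2.64 for Scd2, -2.44 for Fads2, -2.24 for Fads1 and -1.59 for Elovl1, and between -1.15 and -0.78 for the probes of Elovl5 and Fads3. Scd1 was thus brighter in tissue and Scd2 brighter in culture. These means take KO and WT together, and the difference was not the same size in each. Scd1 had 63755 in WT tissue and 26566 in WT cells, against 20827 in KO tissue and 3147 in KO cells. Elovl6 had 12309 in WT tissue and 1261 in WT cells, against 6969 in KO tissue and 1483 in KO cells. The Elovl3 signal of the KO cells was not well above background. In bulk RNA fewer cells of a type and less RNA per cell cannot be told apart.

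Markers of some cell types differed between KO and WT on each array. On the adipocyte array all 13 adipocyte markers were at least 2-fold lower in KO (median -3.49), with Adipoq at -5.22, and the summed normalised signal of their kept probes was 15565 in KO and 495660 in WT. Macrophage markers were lower as well, 8 of 12 (median -1.65), with sums of 93535 in KO and 432138 in WT. Of 12 preadipocyte and fibroblast markers none passed 2-fold (median 0.14), and of 8 smooth muscle markers 5 were higher (median 1.40). Scd1 (-3.08) and Scd2 (-1.94) were thus lower in the same RNA as adipocyte and macrophage markers, while the other 10 member probes kept on that array lay between -0.69 (Elovl3, a bound) and 0.39. Of 9 brown adipocyte markers 7 were lower (median -2.18), Ucp1 having -3.78, of 11 skeletal muscle markers 1 was higher (median 0.09), and endothelial and Schwann cell markers had medians of -0.17 and -0.31 with none past 2-fold. Without loess the medians of the fibroblast and skeletal muscle markers on that array were -0.25 and -0.26. The part of these cell types in the Scd values was not tested. On the BAT array the 12 adipocyte markers kept had a median of 0.17, with none at least 2-fold lower and 1 higher, and sums of 1111210 in KO and 826929 in WT. Skeletal muscle markers were lower there, 12 of 12 (median -2.79), with sums of 79664 in KO and 493699 in WT, and of 8 smooth muscle markers 1 was lower (median -0.56). Of 9 brown adipocyte markers 3 were lower and 1 higher (median -0.35), with Ucp1 at -1.84. Macrophage and fibroblast markers had medians of -0.03 and 0.04 with none past 2-fold, endothelial markers had -0.35 with none past 2-fold, and of 9 Schwann cell markers 1 was lower (median 0.02). Without loess the BAT medians were above 0 for brown adipocyte (0.37), endothelial (0.26) and macrophage (0.32) markers, 0.95 for adipocyte and -0.015 for smooth muscle markers, and -2.17 for skeletal muscle markers. Centred on the spiked-in controls the adipocyte and fibroblast medians were -0.68 and -0.80. The direction of these BAT marker medians therefore rests on the scaling, apart from that of skeletal muscle and smooth muscle, which stayed below 0 in every setting tried. The part of skeletal muscle in the Elovl3 and Scd1 values was not tested.

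Around the members, genes of their substrate supply were read from a list. The list for palmitate and malonyl-CoA holds 11 genes, among them Mlycd, the malonyl-CoA decarboxylase, which removes malonyl-CoA. Of these 11 genes KO tissue had 2 at least 2-fold lower and 0 higher (median -0.69, but -0.029 without loess), where 8 lay below 0. Among all 15623 genes kept there 2.44% were lower and 0.8% higher by that measure, and 49.5% were below 0. They were fatty acid synthase Fasn (-2.08) and the malic enzyme Me1 (-1.33), a source of NADPH. In KO adipocytes all 11 were below 0 and 5 at least 2-fold lower (median -0.999). Of the 15119 genes kept on that array 50.2% were below 0, 4.17% at least 2-fold lower and 2.49% at least 2-fold higher. Among these were the lipogenic regulator Thrsp (-3.60), Fasn (-2.62), the citrate lyase Acly (-1.45) and the citrate carrier Slc25a1 (-1.11). Of the acyl-CoA synthetases, which activate fatty acids for both enzyme families, 2 of 5 kept were lower in tissue, Acsl5 (-1.19) and Acsl3 (-1.01). In adipocytes 1 of 4 was lower, Acsl1 (-3.74).

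The partners within the elongation and desaturation reactions came next. Over all kept genes 2.44% were at least 2-fold lower in tissue and 4.17% in adipocytes, with 0.8% and 2.49% higher. Of 7 listed enzymes that complete the elongation cycle 6 were kept on each array. In tissue 1 was lower, Tecrl (-1.89), a relative of the enoyl reductase Tecr known from heart and skeletal muscle. Tecr itself had -0.58. In adipocytes none passed 2-fold (median -0.05), with the ketoacyl reductase Hsd17b12 at -0.68 and the dehydratase Hacd3 at -0.47. Of 6 genes listed for the cytochrome b5 system, parts of which pass electrons to desaturases, 1 was lower in tissue and 1 in adipocytes. In tissue it was the reductase Cyb5r2 (-1.16), from low signals of 79.5 in KO and 177 in WT. In adipocytes it was Cyb5b (-1.12), with its probes at -1.53 and -0.71. Cyb5a had 0.07 in tissue and 0.17 in adipocytes, and the reductase Cyb5r3 had -0.39 and 0.26. Whether the supply of electrons to desaturases differed was not tested. Desaturase and elongase genes outside the 10 members gave 5 kept of 7 on each array. None passed 2-fold in tissue, where Fads6 had -0.61, not well above background in KO, and the ceramide desaturase Degs1 had -0.49. In adipocytes Elovl4, the elongase of ultra-long chains known from retina and skin, was 2.64-fold higher in KO, at 488 against 185 in WT.

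Transcriptional regulators known to act on these genes were 14, of which 13 were kept on each array. In KO tissue none of the 13 passed 2-fold (median 0.13, but -0.71 centred on the spiked-in controls), and the largest were Srebf1 (-0.92), which drives Scd and Elovl6 transcription, and Pparg (0.82). In KO adipocytes 5 of the 13 were at least 2-fold lower (median -0.31), against 4.17% of all genes kept on that array. They were Pparg (-3.49), which is also among the adipocyte markers, the glucose-responsive factor Mlxipl (-3.16), Srebf1 (-2.45), the liver X receptor Nr1h3 (-2.08) and Ppara (-1.08). Whether the tissue and the culture differ in these counts was not tested.

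Enzymes that use the products were described last. Of 4 ceramide synthases kept none passed 2-fold on either array. In tissue Cers6 had 0.35 and Cers4 -0.24, and in adipocytes Cers2 had -0.59 and Cers4 0.51. Among 8 lysophospholipid acyltransferases, which place unsaturated chains into phospholipids, none passed 2-fold in tissue, with Lpcat3 at -0.83 and Mboat2 at -0.32. In adipocytes Lpcat3 (-1.65) and Lpcat2 (-1.25) were lower and Mboat2 (1.44) was higher. Of all genes kept there 4.17% were at least 2-fold lower and 2.49% at least 2-fold higher. Of 7 genes of peroxisomal chain shortening none passed 2-fold in tissue, Abcd3 (-0.73) and Acaa1a (-0.44) being the largest. All 7 were below 0 in adipocytes (median -0.74), against 50.2% of all kept genes, with the peroxisomal carrier Abcd2 (-1.28) lower.

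**Figure D4:**
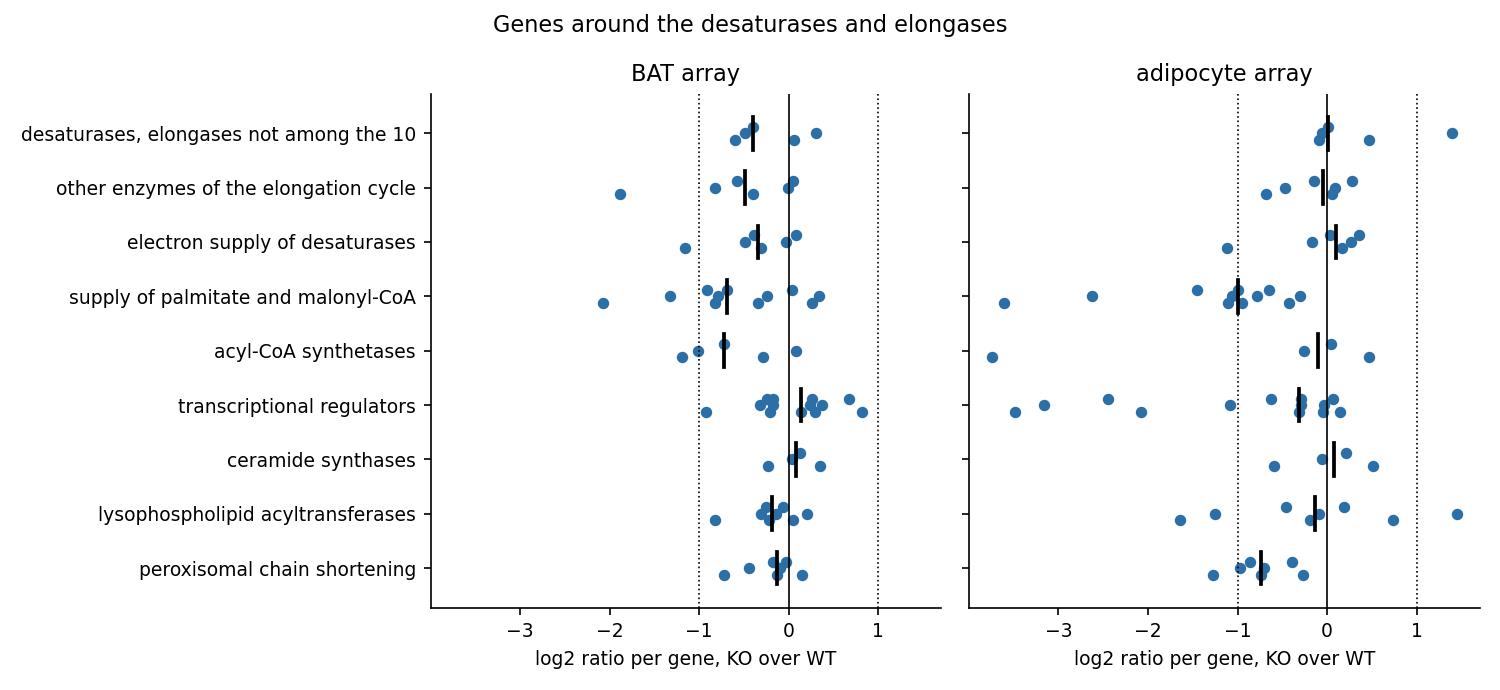
Log2 ratio of KO over WT per gene (points, mean over kept probes) for 9 lists of genes around the desaturases and elongases on each array, with the list median as a vertical bar and dotted lines at a 2-fold difference. The supply of palmitate and malonyl-CoA has medians of -0.69 in BAT and -0.999 in adipocytes, while the elongation cycle has -0.49 and -0.05 in the same order.

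Genes with both ratios most like those of Scd1 were named by distance in the plane of both log2 ratios, over 11085 genes well above background on all kept probes in both channels of both arrays. With 2 arrays this likeness rests on 2 values per gene. No nearest genes are given for Elovl3, whose adipocyte ratio is only a bound. Nearest to Scd1 were Orm1 (0.19), Aldh1a7 (0.20) and Orm2 (0.31). Orm1 had -1.45 in BAT and -3.18 in adipocytes, and Orm2 had -1.36 in BAT and -2.90 in adipocytes. Both encode the acute phase protein orosomucoid, are similar in sequence, and may share signal.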

How the data were processed

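Trizol extracts of total RNA were linearly amplified, labelled and hybridised on 2 two-colour arrays, per the labels' protocols. The deposited files hold spot intensity values (mean signal, median local background and processed signal of each dye) and a log10 ratio of red over green with its modelled error, from Agilent Feature Extraction 9.5.1.1, per the file headers. The deposited value table holds log10 ratios, which matched KO over WT within 0.017 on the log2 scale. Its column medians were 0.090 (BAT) and 0.017 (adipocytes), and it left 7623 and 6968 gene spots empty, for a reason not given in the sources. Which build the coordinates use is not given either.

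From the intensity values ratios were computed with limma 3.58.1 in R 4.3.3. Each array had 45018 spots, including 1639 controls. Flagged outliers, by spot or local background, were removed before fitting (1215 gene spots in BAT, 203 in adipocytes). Background was corrected with normexp (offset 50) and dyes by loess with weight 0 for controls. Levels shown as normalised signals were scaled between the arrays by Aquantile. Probes well above background in either channel were kept. Gene spots so bright made up 74.1% in KO and 63.1% in WT in BAT, and 68.1% in KO and 70.1% in WT in adipocytes. The 13 member probes were read apart. List genes are means over kept probes, named through RefSeq accession, symbol or unique synonym (19505 genes). For a bound, the bright channel was divided by the dim probe's value or by the lowest signal well above background, whichever was larger. The steps were tested on simulated data with a smooth dye bias and with changes planted in brighter spots only, so dim probes are not covered. Members, lists and the removal of outlier spots before fitting were chosen with earlier results of these data known. Genes are named by rule: all members; up to 4 genes past 2-fold per pathway list and array, or else the 2 largest; Prkg1, Ucp1 and Adipoq; and the 3 nearest genes of Scd1. The rule named those of Elovl3 too, which are left out since its adipocyte ratio is a bound. Tecr, Ppara, Scd3, Scd4, Cyb5a, Cyb5r3 and the sex-linked genes were added after their values were seen. The other settings tried were offset 0, no background correction, no loess, Feature Extraction's ratios, the deposited table, outlier spots kept, a shift by the spiked-in controls, the second deposited copy, both channels above background, no brightness filter, a 1.5-fold call and, for genes with several probes, the brightest probe. The second copy differed by at most 0.498% in signal.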

Additional observations from a re-analysis of the deposited data

Results flagged for a closer look

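Of the member probes 5, well above background in every channel, ran opposite ways on the 2 arrays by more than the SD between spots of a probe. The share of all probes that did so was not counted, so this count is not read as a trait of the members. With 1 array each, the difference between tissue and culture was not tested. Scd2 had 0.13 in BAT and -1.94 in adipocytes. Elovl6 had -0.82 in BAT and 0.23 in adipocytes, and Elovl7 had -0.62 in BAT and 0.37 in adipocytes. Fads1 had -0.33 in BAT and 0.20 in adipocytes, and the brighter Fads3 probe had -0.86 in BAT and 0.31 in adipocytes. Without loess the adipocyte values of Elovl6 (-0.19) and of that Fads3 probe (-0.096) were below 0, and Fads1 had 0.11 in BAT and -0.21 in adipocytes. Centred on the spiked-in controls, Scd2 had -0.71 in BAT and Fads1 fell below 0 in adipocytes, so neither ran opposite ways. Feature Extraction's own ratio, with its modelled error, was 0.15 ± 0.20 for Scd2 in BAT and 0.30 ± 0.21 for Fads1 in adipocytes. KO carried Cy5 on the BAT array and Cy3 on the adipocyte array, so a dye bias of a probe would also run opposite ways, and this was not tested.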

How the results depend on the processing

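No paired analysis was possible because each comparison has 1 array. No called member ratio changed sign under any of the 10 other settings. The member probes at least 2-fold lower in BAT were 2, but 1 without loess (Elovl3), 1 with outlier spots kept (Scd1), 8 centred on spiked-in controls and 5 at 1.5-fold. In adipocytes they were 2, and Elovl3 also passed with offset 0, in the deposited table and by Feature Extraction's ratios, while 1 was higher, Elovl7, by those ratios and 1, Elovl7 again, in the deposited table. Over all BAT probes, 732 lower and 278 higher became 1705 and 909 with offset 0, 1870 and 3108 with Feature Extraction's ratios, 1865 and 3100 with the deposited table, 168 and 82 with outlier spots kept, 8498 and 25 centred on spiked-in controls, and 2206 and 1307 at 1.5-fold, with 1542 higher without loess. Over all adipocyte probes, 1135 lower and 605 higher became 2401 and 287 without loess, 1805 and 1409 with Feature Extraction's ratios, 1800 and 1404 with the deposited table, 1728 and 325 centred on spiked-in controls, and 2759 and 2261 at 1.5-fold, with 970 higher with offset 0. The share of higher among called probes was 27.5% in BAT (65.0% without loess, 62.4% with Feature Extraction's ratios, 0.293% centred on spiked-in controls) and 34.8% in adipocytes (10.7% without loess, 43.8% with Feature Extraction's ratios, 15.8% centred on spiked-in controls). The median of all kept probes was 0.25 in BAT and -0.26 in adipocytes without loess, and -0.83 and -0.24 centred on spiked-in controls. The cause of these shifts was not tested. Low signal limits Elovl3 and Elovl7, and the number of arrays limits all values.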
